A study of Mus musculus with 7 samples.

Results

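The genes described here are 36 markers of cells other than macrophages, grouped as genes of endothelial, red cell, epithelial, stromal, lymphoid, platelet, mast cell and granulocyte identity. Of these, 35 had a row among the 27179 rows of the count table and are described below. The beta globin gene Hbb-bt is not analysed here. The RNA came from sorted alveolar macrophages of C57BL/6 mice aged 4 months, with 4 wild-type (WT) libraries and 3 libraries of mice with a knockout of Cish (Cish KO, here KO), a gene for an inhibitor of cytokine signalling. The labels give no treatment, sex, sorting gate, pooling of animals or batch. Since nothing ties each library to a separate mouse, the p-values cover the spread among these 7 libraries, which may be technical. Values are listed in the order WT 1 to WT 4, then KO 1 to KO 3. Total counts lay between 26780291 and 34483612 per library.

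Alveolar macrophages live in the airspaces, on the surface of type 1 and type 2 epithelial cells and close to the capillaries. They take up surfactant, dead cells and red cells. Cells recovered from lung therefore lie next to epithelium, endothelium, fibroblasts and blood. Transcripts of those neighbours in a sorted macrophage library can belong to other cells, to free or ingested RNA, or to low expression in the macrophages themselves, and bulk counts do not separate these. Nor can fewer cells of a type be told apart from less RNA per cell.

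The label of the sorted cells was checked on 22 macrophage genes, which together held 79500 to 148000 CPM in each library. CPM are counts scaled to library size with TMM factors, so that libraries can be compared. The 3 most abundant were the lysozyme gene Lyz2 with a mean of 45100 CPM, the chitinase-like gene Chil3 with 42700 and the chemokine gene Ccl6 with 13300. Siglecf, a surface receptor widely used to identify these cells, had 521 to 587 CPM in WT and 372 to 455 in KO. The targeted gene Cish had 46.3, 29.6, 38.1 and 67.9 CPM in the WT libraries and 12.9, 14.3 and 10.9 in the KO libraries. All KO libraries were below all WT libraries (log2 fold change -1.84, adjusted p = 0.0519 by edgeR and 2.81e-11 by DESeq2).

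The main pattern among the 35 genes lay between libraries. The highest CPM was in KO 1 for 16 genes (19.7% of all 12759 genes tested) and in KO 2 for 15 (12.9%), so 31 of 35 peaked in one of these libraries, against 32.6% of all genes tested. WT 3 was the lowest library for 22 of 35, against 13.6% of all genes tested, and KO 1 was the lowest for 1 (20.1%). KO 3 did not share the level of the other KO libraries. KO 1 lay above every WT library for 29 of the 35 genes and KO 2 for 24, where 28.3% and 22.6% of all genes did so. KO 3 lay above every WT library for 6 (background 22.3%), within the WT range for 27 and below it for 2. The mean CPM was higher in KO for 32 of 35 genes (50.5% of all genes tested), but for KO 3 alone the count was 14 of 35 (49.3% of all genes), a comparison chosen after seeing the data.

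**Figure D1:**
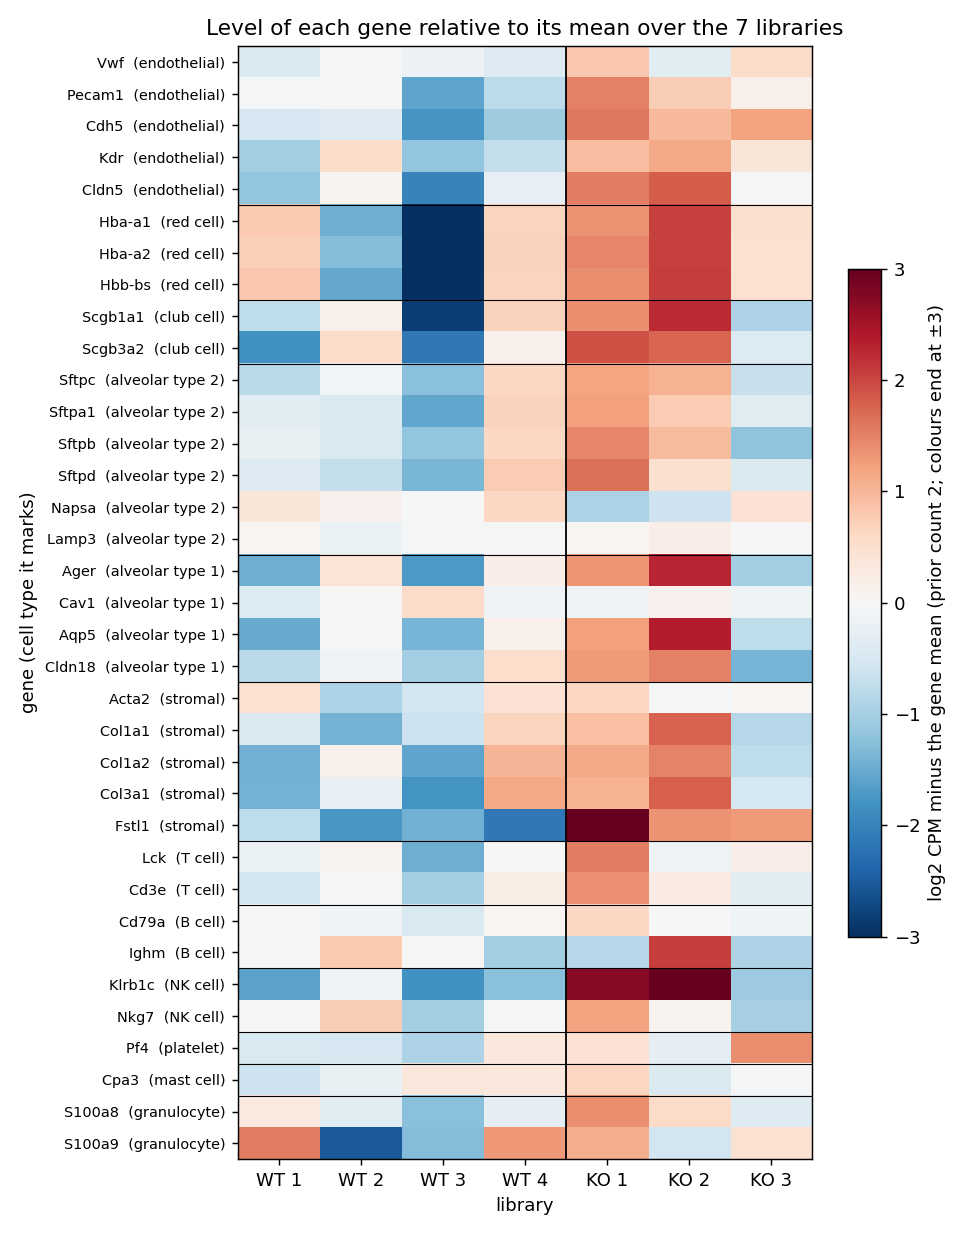
Heat map of 35 genes (rows, grouped by the cell type each marks) in 7 libraries (columns); colour gives log2 CPM minus the mean of that gene. Red squares crowd in KO 1 and KO 2, which hold the highest level of 31 of the 35 genes, and WT 3 is lowest for 22.

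By the test of genotype, 0 of the 35 genes were called by edgeR's quasi-likelihood test at an adjusted p below 0.05, where 0.0862% of all genes tested were called, 0.047% higher and 0.0392% lower in KO. At an unadjusted p below 0.05 there were 12, all higher in KO, against 9.15% of all genes higher and 8.85% lower. DESeq2 called 5 of 35, all higher in KO: Pecam1, Cldn5, Cdh5, Fstl1 and Klrb1c (of all genes 5.71%, with 2.68% higher and 3.02% lower). CPM did not overlap between genotypes for 3 genes, Pecam1, Cdh5 and Fstl1, all higher in KO, a share close to the 7.23% of all genes tested. For 0 of 35 was every KO library below every WT library (8.72%). Log2 fold changes had a median of 1.07 over the 35 genes and of 0 over all genes tested. All 35 passed the filter on low counts, but 10 reached its level of 0.324 CPM in fewer than 3 WT libraries and so entered with the help of KO libraries: Cdh5, Kdr, Scgb3a2, Aqp5, Cldn18, Col1a2, Col3a1, Klrb1c, Cpa3 and S100a9. A higher level of those genes in KO can be partly built into the selection. WT 4 and KO 3 are the last 2 columns of the table, and no label calls them a batch. With both left out, as decided once the values were known, edgeR called 11 of the 35 genes, 10 higher and 1 lower in KO, and 4.57% of all genes tested.

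**Figure D2:**
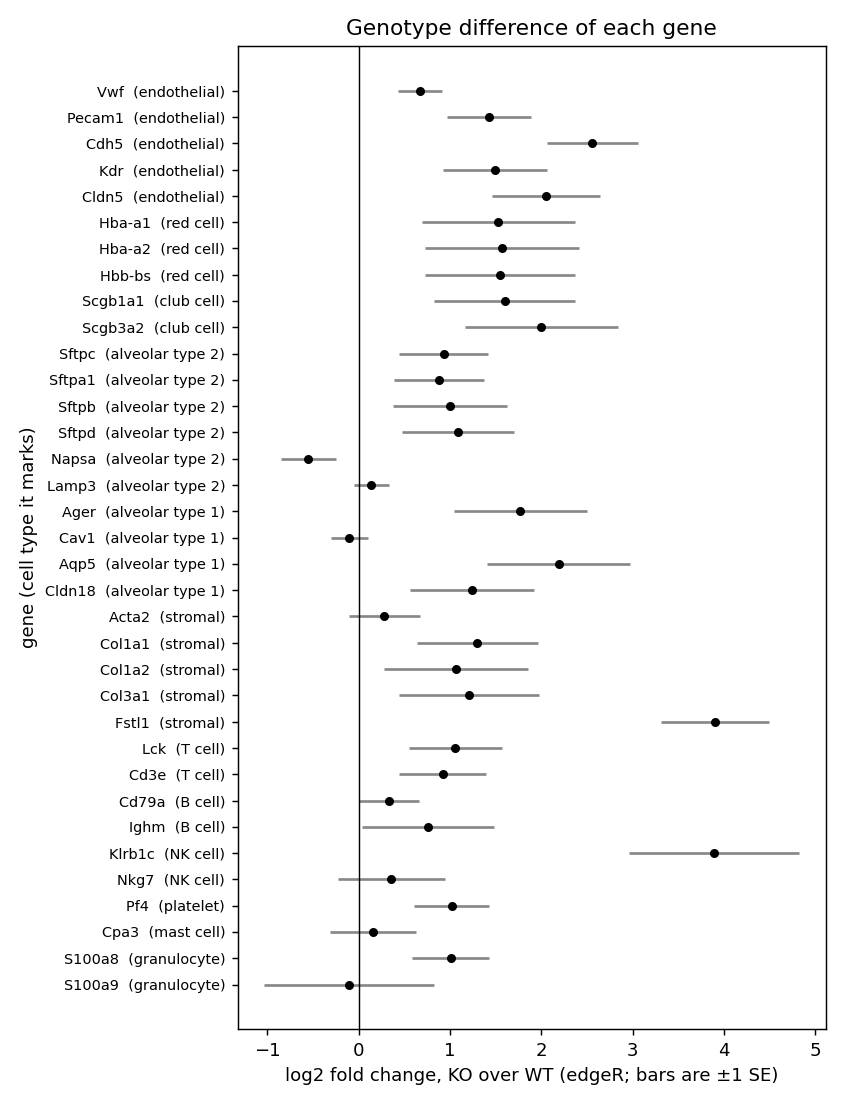
Log2 fold change of KO over WT (horizontal axis, edgeR, bars ±1 SE) for each of the 35 genes (vertical axis). Of the 35 points, 32 lie above 0, and Fstl1 at 3.90 and Klrb1c at 3.89 lie farthest to the right.

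Red cell transcripts were the most abundant of the set per length. Hba-a1 and Hba-a2 encode the alpha chains of haemoglobin and Hbb-bs a beta chain. Hba-a1 lies on chromosome 11 at 32283511 to 32284465, Hba-a2 at 32296489 to 32297298, and Hbb-bs on chromosome 7 at 103826534 to 103828096 (mm10, GENCODE M21). The coding sequences of Hba-a1 and Hba-a2, 426 bases each without the stop codon, differ at 1 base, and those of Hbb-bs and Hbb-bt, 441 bases each, also at 1 base. Counted from the first base of the start codon of the first gene named, the differences are C381T between Hba-a1 and Hba-a2 and C417T between Hbb-bs and Hbb-bt. The last coding exon of each gene is shown 5′ to 3′ on the coding strand because it holds the difference, which stands in capitals. It covers bases 301 to 426 of the alpha and 316 to 441 of the beta coding sequences.
Hba-a1: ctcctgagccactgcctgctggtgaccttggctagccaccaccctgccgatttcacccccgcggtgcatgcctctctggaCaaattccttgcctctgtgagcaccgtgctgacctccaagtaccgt
Hba-a2: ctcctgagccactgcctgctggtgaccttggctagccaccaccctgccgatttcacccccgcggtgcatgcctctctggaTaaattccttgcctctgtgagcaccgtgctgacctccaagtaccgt
Hbb-bs: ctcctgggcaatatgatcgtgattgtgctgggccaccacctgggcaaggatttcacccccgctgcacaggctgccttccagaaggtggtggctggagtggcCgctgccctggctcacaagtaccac
Hbb-bt: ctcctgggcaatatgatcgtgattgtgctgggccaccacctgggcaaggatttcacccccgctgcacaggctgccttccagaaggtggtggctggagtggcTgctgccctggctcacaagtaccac

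Reads from most of the coding sequence therefore cannot tell the alpha genes apart, and their counts were nearly equal. Hba-a1 had 5064, 952, 178 and 4215 counts in the WT libraries and 6426, 8776 and 3140 in the KO libraries. Hba-a2 had 5068, 1129, 160 and 4487 in WT and 7209, 9339 and 3245 in KO. Hbb-bs had 2035, 359, 69 and 1658 in WT and 2607, 3530 and 1231 in KO. KO 2 was highest and WT 3 lowest for all 3 genes, while WT 1 and WT 4 lay above KO 3. In CPM, Hba-a1 spanned 60.2-fold between libraries and Hbb-bs 62.5-fold. Within WT alone Hba-a1 went from 5.66 to 142 CPM, and the genotypes overlapped. Its mean was 77.2 CPM ± 69.6 for WT (SD, n = 4) and 223 ± 113 for KO (SD, n = 3); the log2 fold change was 1.53 (SE 0.84; edgeR adjusted p = 0.373). The alpha and beta genes kept their proportion throughout: the ratio of Hba-a1 to Hbb-bs counts stayed between 2.46 and 2.65 in the 7 libraries. A further beta globin symbol in the table, Hbb-b1, is not in the set and was looked at after its values were seen. It spanned 62.6-fold in CPM and was likewise lowest in WT 3 and highest in KO 2. GENCODE M21 has no gene of that name. Whether Hbb-b1 holds reads of Hbb-bt or reads shared with Hbb-bs was not tested, so its values may not be independent of those of Hbb-bs.

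Of 11 further red cell genes in the table, 3 passed the filter and none was called by edgeR or DESeq2. Bpgm, the enzyme that makes the oxygen-affinity regulator of red cells, was the most abundant and nearly level at 8.49 to 13.9 CPM. Alas2, the haem synthesis enzyme of red cell precursors, was picked out after its values were seen. It had 0.573 CPM in WT 3, 7.22 in WT 1 and 14.3 in KO 2, the same highest and lowest libraries as the globins.

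Surfactant and secretory genes of the epithelium formed the next block. Sftpc, the surfactant protein C gene of type 2 cells (chromosome 14, 70520949 to 70524081), had 631, 926, 405 and 1508 counts in the WT libraries and 2105, 1625 and 522 in the KO libraries. KO 1, KO 2 and WT 4 were high, and KO 3 lay inside the WT range. Its mean was 26.7 CPM ± 15.2 for WT (SD, n = 4) and 50.6 ± 27.4 for KO (SD, n = 3); the log2 fold change was 0.93 (SE 0.49; edgeR adjusted p = 0.362). Sftpa1, which encodes the collectin surfactant protein A, had 210, 177, 78 and 385 counts in WT and 527, 327 and 157 in KO. Sftpb and Sftpd, for the hydrophobic surfactant protein B and the collectin D, were lower, at 0.368 to 2.71 and 0.350 to 3.33 CPM, and peaked in KO 1 too. None of these 4 genes passed the test (edgeR adjusted p = 0.362 to 0.429).

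Club cells line the small airways and secrete uteroglobin, the product of Scgb1a1. That gene had 168, 286, 34 and 417 counts in the WT libraries and 641, 972 and 114 in the KO libraries. KO 3 lay below WT 1, WT 2 and WT 4. Scgb3a2, a related secretoglobin gene, had 2, 18, 1 and 13 counts in WT and 47, 35 and 7 in KO. Both missed the threshold, with edgeR adjusted p = 0.316 and 0.255.

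Type 1 cells form the thin gas-exchange surface. Their receptor gene Ager had 30, 104, 22 and 90 counts in the WT libraries and 188, 312 and 32 in the KO libraries. The water channel gene Aqp5 had 3, 11, 3 and 13 counts in WT and 28, 54 and 5 in KO. Cldn18, a tight junction gene, had 11, 17, 8 and 28 in WT and 46, 46 and 5 in KO. For each of the 3, KO 1 and KO 2 lay above every WT library and KO 3 below WT 2 and WT 4. Their log2 fold changes were 1.77, 2.19 and 1.24, and none passed (edgeR adjusted p = 0.194 to 0.375).

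A further 3 genes given as epithelial did not follow this block. Napsa encodes the aspartic protease napsin A, which processes surfactant protein B in type 2 cells. It had 3491, 2658, 2432 and 3783 counts in the WT libraries and 1206, 1286 and 2793 in the KO libraries, so it was lowest in the libraries where Sftpc was highest. The count of Sftpc per count of Napsa was 1.75 in KO 1 and 1.26 in KO 2, and 0.167 to 0.399 in the other 5 libraries. Mean Napsa CPM was 94.1 ± 18.3 for WT (SD, n = 4) and 64.2 ± 33.8 for KO (SD, n = 3), with a log2 fold change of -0.55 (edgeR adjusted p = 0.366). Without KO 3 it passed (log2 fold change -1.07, edgeR adjusted p = 0.0375).

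Cav1, the gene of the membrane coat protein caveolin 1, had 65.8 to 129 CPM in WT and 79.8 to 95.0 in KO and was the only gene of the 35 highest in WT 3. Lamp3, a lysosomal membrane protein gene, was nearly level at 2.47 to 3.26 CPM. Cav1 made up most of the summed CPM of the type 1 genes in every library. Among the type 2 genes Napsa was the most abundant in WT and KO 3, and Sftpc in KO 1 and KO 2. Summed type 2 genes had a mean of 132 CPM ± 37.0 for WT (SD, n = 4) and 133 ± 2.17 for KO (SD, n = 3), and summed type 1 genes of 93.8 ± 26.7 and 94.1 ± 15.3.

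**Figure D3:**
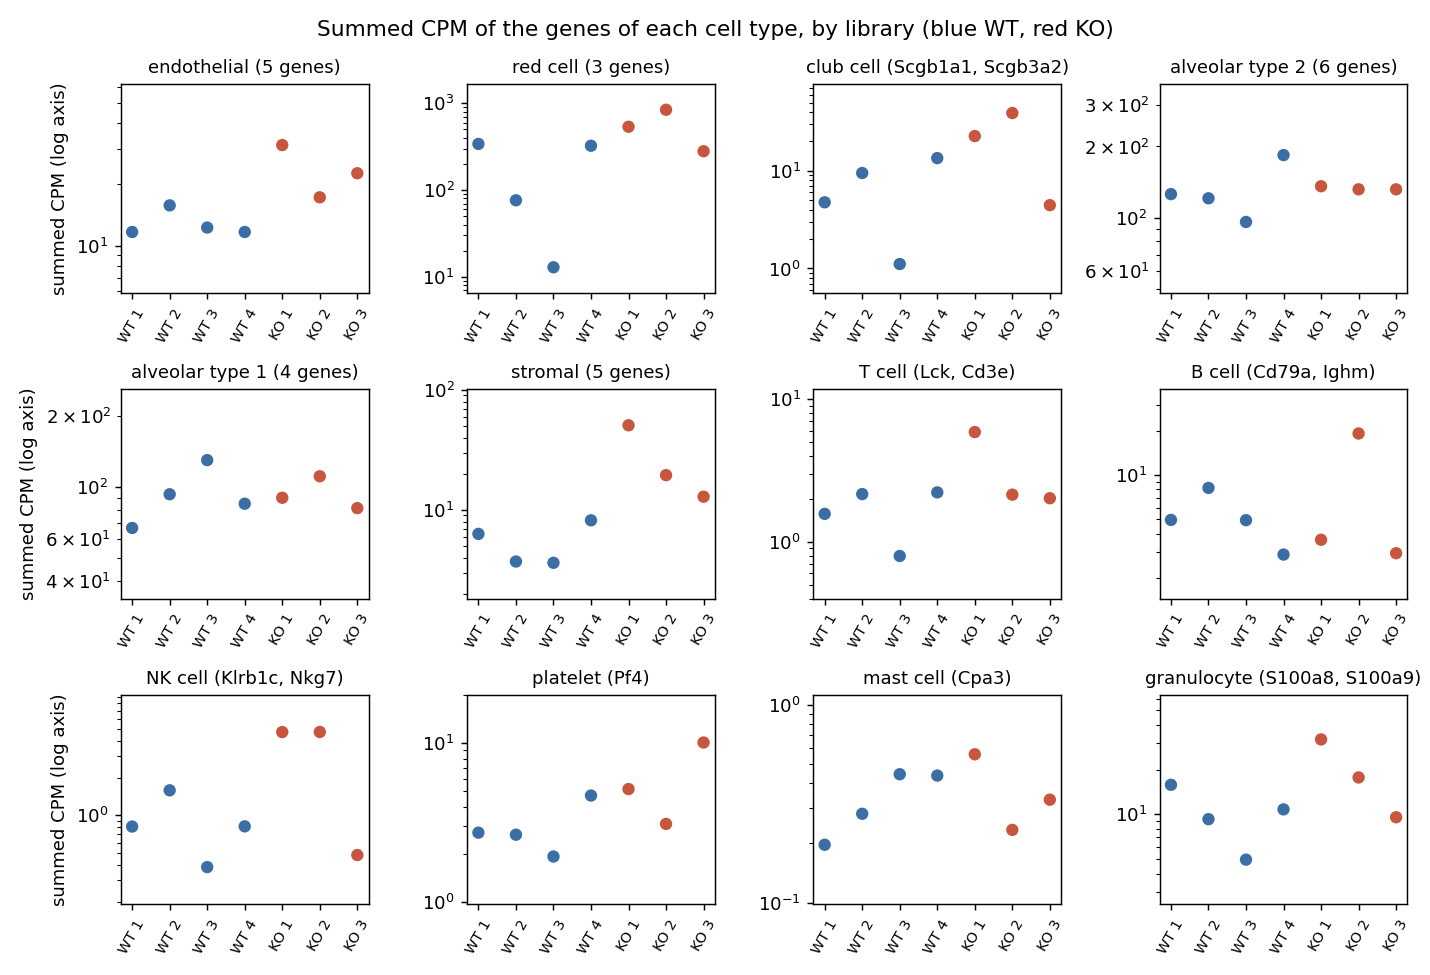
Summed CPM (vertical, log axis) of the genes of each cell type in each library (horizontal; blue WT, red KO), 1 panel a cell type. Red cell genes run from 12.9 CPM in WT 3 to 841 in KO 2, while the type 1 and type 2 sums span 1.95-fold and 1.91-fold.

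Among wider epithelial markers, 25 of 32 listed passed the filter, edgeR called none, and DESeq2 called Sec14l3 higher and Tppp3 lower in KO. The lists are broad: Tppp3, Foxj1 and Ccdc153 in the club cell list are genes of ciliated cells. Epcam, Cdh1, Krt7 and Krt8 in the type 1 list are genes of epithelium in general. The log2 fold change was above 0 for 5 of 6 genes tested in the club cell list (median 1.02). It was so for 7 of 9 in the type 2 list (median 0.68) and 7 of 10 in the type 1 list (median 0.62), against 50.5% of all genes tested. The highest CPM was in KO 1 or KO 2 for 4, 5 and 5 of them (32.6% of all genes tested). Some of these genes, such as Scgb3a1, reached the filter level mainly in KO libraries, so a higher level there can be partly built into the selection. The most abundant of each list were Tppp3, a tubulin-binding protein gene with 330 to 578 CPM in WT and 108 to 235 in KO, Lyz1, a lysozyme gene, with 569 to 1120 over all libraries, and Epcam, the epithelial adhesion molecule gene, with 135 to 302 in WT and 9.24 to 92.6 in KO. Tppp3 and Epcam had their lowest CPM in KO 1 and KO 2, the highest libraries of Sftpc and Scgb1a1, and did not overlap between genotypes (edgeR adjusted p = 0.0898 and 0.143).

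Of the 35 genes, 3 were higher in every KO library than in any WT library, a share close to the 7.23% of all genes tested. The endothelial genes Cdh5 and Pecam1 were 2 of these 3. Cdh5, the adhesion molecule of endothelial junctions (chromosome 8, 104101625 to 104144511), had 6, 6, 1 and 3 counts in the WT libraries and 28, 15 and 19 in the KO libraries. All 3 KO libraries lay above all WT libraries, with means of 0.735 CPM ± 0.174 (SD, n = 3) and 0.120 ± 0.0714 (SD, n = 4). The log2 fold change was 2.56 (SE 0.50) with an adjusted p = 0.0898 by edgeR and 0.00662 by DESeq2. Cdh5 reached the filter level in 0 WT and 3 KO libraries, so it entered the edgeR test only through the group where it was high, and its p-values are given as a description. Pecam1, an adhesion molecule also known from platelets and leukocytes, had 50, 47, 14 and 26 counts in WT and 130, 63 and 44 in KO. In CPM its KO libraries lay above all WT libraries, though KO 3 at 1.62 was close to WT 2 at 1.47 (edgeR adjusted p = 0.164, DESeq2 0.0392).

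Cldn5, the tight junction gene of vessels, had 12, 28, 5 and 22 counts in WT and 77, 79 and 22 in KO. KO 3 lay at 0.809 CPM, below WT 2 at 0.875 (edgeR adjusted p = 0.136, DESeq2 0.0151). Kdr, the receptor for vascular endothelial growth factor, had 4, 15, 3 and 5 counts in WT and 19, 19 and 11 in KO, with WT 2 above KO 3 in CPM. Vwf, for the clotting factor of endothelium and platelets, was the most abundant of the list and varied least. It had 9.71 to 12.8 CPM in WT, and 22.8, 10.4 and 19.2 in the KO libraries (log2 fold change 0.67, edgeR adjusted p = 0.193).

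Of 15 further endothelial genes, 12 passed the filter. Each of the 12 had its highest CPM in KO 1 or KO 2 (32.6% of all genes tested) and a log2 fold change above 0 (50.5%). The median was 1.60. Some of the 12 reached the filter level mainly in KO libraries, so a higher level there can be partly built into the selection. Tek, for example, had 0.196 to 0.656 CPM in WT and 0.809 to 1.24 in KO. EdgeR called none, and DESeq2 called 5 higher in KO, as it did 2.68% of all genes. Calcrl, the receptor for calcitonin-like peptides and the most abundant of them, was level at 32.2 to 40.9 CPM. Cd93, a C-type lectin receptor that myeloid cells also carry, was picked out after its values were seen, with 1.63 to 18.9 CPM in WT and 26.6 to 49.6 in KO (edgeR adjusted p = 0.141).

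Stromal genes are given as the fibrillar collagens, Acta2 and Fstl1. The proportion of the collagens varied: Col3a1 counts were 0.467 times those of Col1a1 in WT 3 and 3.12 times in WT 2. These ratios rest on 7 and 15 counts in WT 3 and 25 and 8 in WT 2, so counting error weighs on them. In WT 4, KO 1 and KO 2, where counts were higher, the ratio was 1.21 to 1.68. Col1a1, Col1a2 and Col3a1 encode the chains of collagens I and III that fibroblasts deposit. Col1a1 had 20, 8, 15 and 41 counts in the WT libraries and 46, 73 and 11 in the KO libraries. Col3a1 had 11, 25, 7 and 69 in WT and 60, 88 and 17 in KO, and Col1a2 had 4, 15, 3 and 29 in WT and 30, 33 and 6 in KO. WT 4 stood with KO 1 and KO 2, and KO 3 with the other WT libraries (edgeR adjusted p = 0.341 to 0.509). Acta2, the smooth muscle actin gene, had 1.13 to 3.11 CPM in WT and 2.14 to 3.50 in KO (log2 fold change 0.28).

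Fstl1 went apart from the collagens. This gene of a secreted glycoprotein (chromosome 16, 37776873 to 37836514) had 80, 35, 43 and 26 counts in the WT libraries and 1296, 252 and 255 in the KO libraries. Every KO library was above every WT library, with means of 20.7 CPM ± 19.2 for KO (SD, n = 3) and 1.38 ± 0.616 for WT (SD, n = 4), and KO 1 at 42.8 was far above KO 2 at 9.79 and KO 3 at 9.38. WT 4, which was the highest WT library for Col3a1, was the lowest of all for Fstl1. The log2 fold change was 3.90 (SE 0.59) with an adjusted p = 0.0561 by edgeR and 1.22e-05 by DESeq2. Without KO 1 it was 2.79 and passed edgeR (adjusted p = 0.0489). Over the 16 alternatives the adjusted p ranged from 1.22e-05 to 0.174 and passed in 8.

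Among 16 other stromal genes, 8 passed the filter, all 8 with a log2 fold change above 0 (50.5% of all genes tested). Some of the 8, such as Eln, reached the filter level mainly in KO libraries, so this can be partly built into the selection. EdgeR called none, and DESeq2 called Sparc and Inmt higher in KO, as it did 2.68% of all genes. Fn1, the fibronectin gene and the most abundant, had 99.8 to 235 CPM in WT and 115, 78.9 and 331 in the KO libraries (log2 fold change 0.01).

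**Figure D4:**
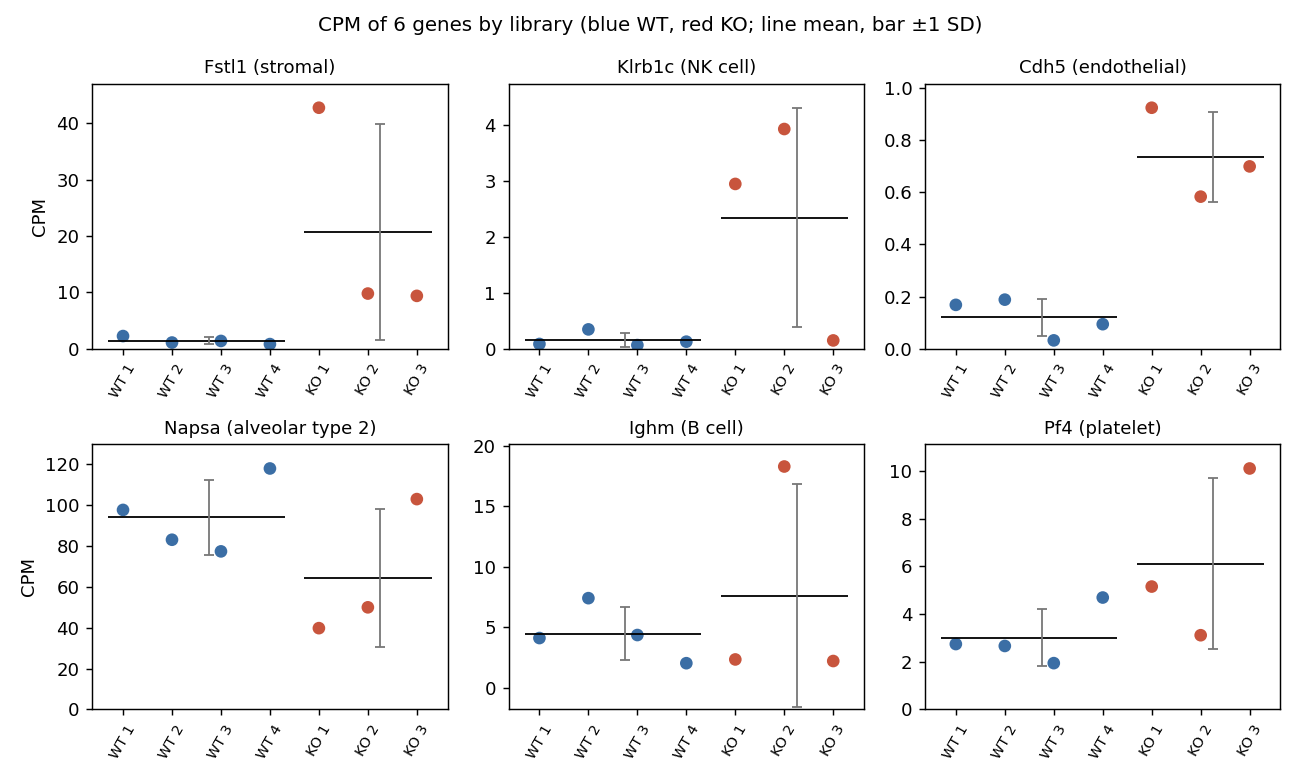
CPM (vertical axis, from 0 or below where the SD bar reaches there) of Fstl1, Klrb1c, Cdh5, Napsa, Ighm and Pf4 in each library (horizontal; blue WT, red KO; line mean, bar ±1 SD, n = 4 and 3). Fstl1 and Cdh5 are higher in all 3 KO libraries, Klrb1c only in KO 1 and KO 2, Ighm in KO 2 and Pf4 in KO 3, and Napsa is lowest in KO 1 and KO 2.

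Lymphoid genes were scarce. Cd3e, Lck, Cd79a and Nkg7 all had their highest CPM in KO 1 and their lowest in WT 3, while Ighm and Klrb1c were highest in KO 2. Cd3e, a chain of the T cell receptor complex, had 23, 32, 14 and 37 counts in the WT libraries and 80, 30 and 21 in the KO libraries. Lck, the kinase that this receptor signals through, had 33, 37, 11 and 34 in WT and 98, 25 and 34 in KO. KO 1 was the high library for both. In CPM, Cd3e had 1.17 in KO 2, just above the highest WT library at 1.16, and 0.772 in KO 3, while Lck had 0.971 in KO 2 and 1.25 in KO 3, above the highest WT library at 1.16 (edgeR adjusted p = 0.359 and 0.313). Of 12 other T cell genes 9 passed the filter, 8 of them highest in KO 1 (19.7% of all genes tested). DESeq2 called only Il7r, the interleukin 7 receptor gene, higher in KO, and edgeR called none. Lat, an adaptor of the receptor complex, was the most abundant at 1.80 to 3.99 CPM.

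B cell genes varied by library in another way. Ighm, the heavy chain gene of immunoglobulin M, had 147, 237, 137 and 65 counts in the WT libraries and 71, 471 and 60 in the KO libraries. KO 2 was high, and KO 1, KO 3 and WT 4 were low. Cd79a, the signalling chain of the B cell receptor, was nearly level at 0.573 to 1.29 CPM with no peak in KO 2. The log2 fold changes were 0.76 and 0.33, neither past the threshold (edgeR adjusted p = 0.615 and 0.627), and that of Ighm was -0.98 without KO 2. In the wider list Cd22, a sialic acid binding receptor and the most abundant, was level at 127 to 146 CPM. Of the 7 genes tested, 6 had a log2 fold change below 0, and neither edgeR nor DESeq2 called any. Igkc and Jchain, the light chain and joining chain genes of antibody-secreting cells, were picked out after their values were seen. Both had their lowest CPM in WT 4, KO 1 and KO 3, as Ighm did: Igkc had 0.876 to 1.88 CPM there and 7.57 to 10.8 in the other 4 libraries.

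Klrb1c encodes the receptor NK1.1 of natural killer (NK) cells (chromosome 6, 128778485 to 128789215). It had 3, 11, 2 and 4 counts in the WT libraries and 89, 101 and 4 in the KO libraries. Expression was thus high in KO 1 and KO 2 and at the WT level in KO 3, so the genotypes overlapped. The log2 fold change was 3.89 (SE 0.93), with an adjusted p = 0.103 by edgeR and 0.000461 by DESeq2, and it passed edgeR without KO 3 (0.0128), the KO library at the WT level. Klrb1c reached the filter level in 1 WT and 2 KO libraries, so it entered the test mainly through the KO libraries where it was high. Its p-values are given as a description. Nkg7, a granule protein gene of NK and cytotoxic T cells, had 26, 40, 10 and 22 counts in WT and 53, 20 and 9 in KO. KO 2 was therefore the highest library for Klrb1c and stood among the WT libraries for Nkg7. Of 10 other NK genes 4 passed the filter, none called by edgeR or DESeq2, among them the chemokine gene Ccl5, the most abundant, at 1.18 to 3.73 CPM. Of these 4, 3 were highest in KO 1 (19.7% of all genes tested) and 1 in WT 4. Gzmb was picked out after its values were seen. Like Klrb1c it was high in KO 1 and KO 2 only, with 9, 5, 2 and 13 counts in WT and 44, 34 and 2 in KO. It too reached the filter level mainly in KO libraries.

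Pf4, the platelet factor 4 chemokine gene, was highest in KO 3. It had 98, 85, 61 and 150 counts in the WT libraries and 156, 80 and 274 in the KO libraries (log2 fold change 1.02, edgeR adjusted p = 0.236). Of 10 other platelet genes only Clec1b, a C-type lectin receptor, passed the filter. It did not move with Pf4, having 110 to 177 CPM in WT, 159 in KO 3, and 4.62 and 4.47 in KO 1 and KO 2 (log2 fold change -1.24, edgeR adjusted p = 0.568). The platelet integrin gene Itga2b had a mean of 7.29 counts a library.

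Cpa3, a protease gene of mast cells, had 6 to 17 counts in every library (edgeR adjusted p = 0.891). In the wider mast cell and basophil list 3 of 10 genes were at 0 in all libraries, the proteases Mcpt4 and Tpsb2 and the receptor chain Ms4a2. The histamine synthesis gene Hdc was the most abundant at 0.382 to 1.65 CPM. DESeq2 called only the transcription factor gene Gata2 higher in KO, and edgeR called none of the 3 tested. Gata2 had 0.223 to 0.563 CPM in WT and 0.772 to 1.29 in KO, so it passed the filter mainly through KO libraries.

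S100a8 and S100a9 encode the subunits of calprotectin, the main cytosolic protein of neutrophils. S100a8 had 511, 296, 151 and 302 counts in the WT libraries and 931, 448 and 241 in the KO libraries. S100a9 had 55, 1, 5 and 42 counts in WT and 34, 8 and 19 in KO. The subunits did not keep a proportion: S100a8 counts were 7.19 times those of S100a9 in WT 4 and 296 times in WT 2. The value of WT 2 rests on 1 count of S100a9, so counting error weighs on it. In KO 1, with 34 counts of S100a9, the ratio was 27.4. Per kilobase of exon the mean level was 19.5 CPM for S100a8 and 1.42 for S100a9. Neither passed the test (edgeR adjusted p = 0.253 and 0.973). Of 13 other granulocyte genes 3 passed the filter, and the neutrophil surface gene Ly6g was at 0 in all libraries, which allows up to 0.0839 to 0.117 CPM by counting error alone. The receptor gene Csf3r was the most abundant, with 21.4 to 44.4 CPM in WT and 14.6 to 21.6 in KO (edgeR adjusted p = 0.120). DESeq2 called it lower in KO (adjusted p = 0.00421).

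Of the 9 tested genes listed for monocytes and dendritic cells, neither tool called any. Nr4a1, a nuclear receptor and early response gene, was the most abundant at 352 to 1070 CPM, highest in WT 3. Over all the wider lists 84 of 152 genes in the table were tested, 0 were called by edgeR, and 28 had an unadjusted p below 0.05, 25 higher and 3 lower in KO, against 9.15% and 8.85% of all genes tested. Some of the 84, such as Gata2, reached the filter level of 0.324 CPM mainly in KO libraries. A higher level in KO can therefore be partly built into this count and those of the single lists. DESeq2 tested 99 of the 152 genes and called 10 higher and 2 lower, against 2.68% and 3.02% of all genes it tested.

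Which genes came along together was tested on log2 CPM over the 7 libraries, with 25 pairs, exact two-sided permutation tests and Benjamini-Hochberg adjustment. The pairs share libraries and their scaling. Pearson's r passed for 8 of the 25 pairs, 5 within a cell type and 3 between types, and was above 0 for 23. Hba-a1 and Hbb-bs had r = 1.00 (exact permutation p = 0.000198, adjusted 0.00248) and rho = 1.00 (exact permutation p = 0.000397, adjusted 0.00496), in both cases the smallest p that the permutations can give. The r was 1.00 without WT 2 and WT 3, the libraries farthest from the median. Hba-a1 and Hba-a2 gave the same values and may share reads.

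Within the epithelium, Sftpc and Sftpa1 had r = 0.95 (exact permutation p = 0.00198, adjusted 0.00992) and rho = 0.86 (exact permutation p = 0.0238, adjusted 0.085). Sftpc and Scgb1a1, from alveolus and airway, had r = 0.95 (exact permutation p = 0.000992, adjusted 0.00744) and rho = 0.93 (exact permutation p = 0.00675, adjusted 0.0281). Sftpc and Ager had r = 0.94 (exact permutation p = 0.00476, adjusted 0.0198) and rho = 0.93 (exact permutation p = 0.00675, adjusted 0.0281). Without WT 3 and KO 1 these r were 0.91, 0.96 and 0.92, and after subtracting the mean of each genotype 0.93, 0.93 and 0.92. These values are for the 3 named pairs and do not extend to Napsa, Lamp3 or Cav1. Sftpc and Sftpb also passed (r = 0.93, exact permutation p = 0.00595, adjusted 0.0213, and rho = 0.82, exact permutation p = 0.0341, adjusted 0.107, with r = 0.87 without WT 3 and KO 1).

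**Figure D5:**
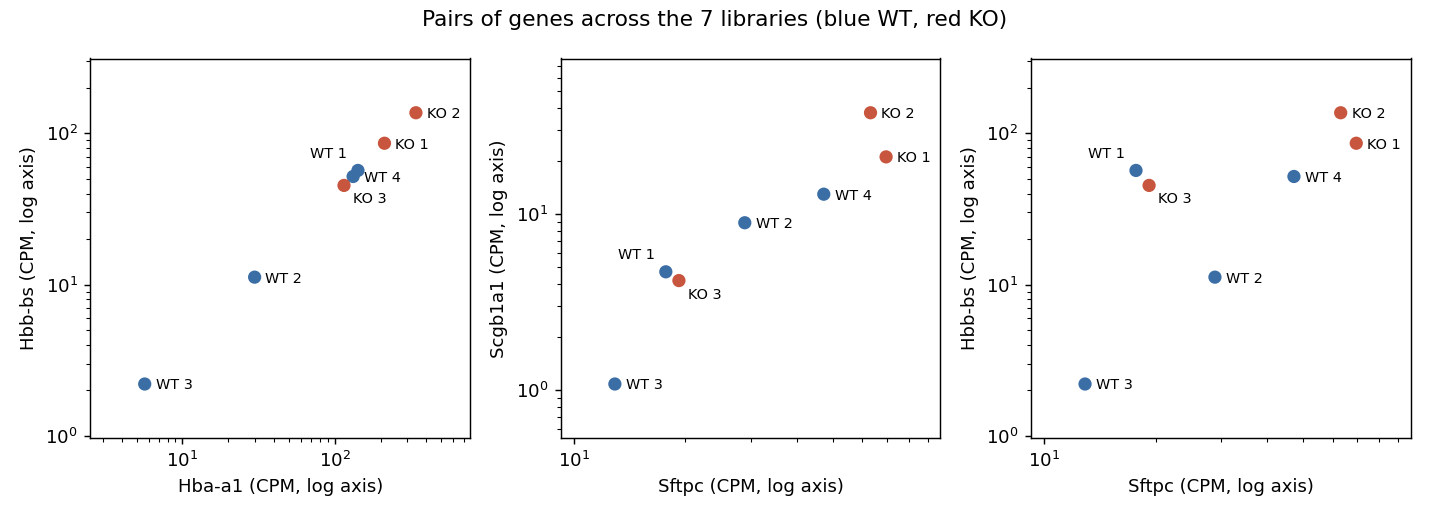
CPM of 3 pairs of genes in the 7 libraries (both axes log; blue WT, red KO). Hba-a1 and Hbb-bs lie on a line over a 60.2-fold range of Hba-a1, Sftpc and Scgb1a1 keep nearly the same order, and Sftpc and Hbb-bs part in WT 1 and KO 3.

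Red cell and epithelial genes did not come in a fixed proportion. Sftpc and Hbb-bs had r = 0.70 (exact permutation p = 0.0687, adjusted 0.101) and rho = 0.71 (exact permutation p = 0.0881, adjusted 0.157), and r = 0.41 without WT 3 and KO 1. The ratio of Sftpc to Hbb-bs counts went from 0.310 in WT 1 and 0.424 in KO 3 to 5.87 in WT 3, an 18.9-fold range, against a 1.08-fold range for Hba-a1 and Hbb-bs. WT 1 and KO 3 held many globin reads beside few surfactant reads. Hbb-bs and S100a8 had r = 0.81 (exact permutation p = 0.0252, adjusted 0.063) and rho = 0.93 (exact permutation p = 0.00675, adjusted 0.0281), with r = 0.68 without WT 2 and WT 3. S100a8 had nearly the same r with Sftpc (0.76) and with Nkg7 (0.77), each with an exact permutation adjusted p = 0.0833. Without WT 3 and KO 1 these r were 0.34 and 0.20. Further pairs between types that did not pass were Hbb-bs with Cdh5 (r = 0.72, adjusted 0.0982), Pf4 with Hbb-bs (0.52, 0.31) and Cdh5 with Col1a1 (0.39, 0.417).

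Pecam1 and Cdh5, both endothelial, had r = 0.92 (exact permutation p = 0.00119, adjusted 0.00744) and rho = 0.96 (exact permutation p = 0.00278, adjusted 0.0231), with r = 0.81 without WT 3 and KO 1. After subtracting the mean of each genotype r was 0.89. Cdh5 reached the filter level in 0 WT and 3 KO libraries and had a mean of 11.1 counts. It met the count minimum for pairs through KO, so the p-values of this pair are given as a description. Cdh5 was not found to follow Sftpc (r = 0.56, exact permutation p = 0.185, adjusted 0.243, and rho = 0.64, exact permutation p = 0.139, adjusted 0.193, with r = -0.01 without WT 3 and KO 1). Cd3e and Cd79a passed (r = 0.92, exact permutation p = 0.0105, adjusted 0.0329, and rho = 0.71, exact permutation p = 0.0881, adjusted 0.157), but r was 0.15 without WT 3 and KO 1, so that relation rests on these 2 libraries.

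Of the 14 pairs within a cell type 5 passed, and those that did not are given here. Fstl1 and Col1a1 had r = 0.48 (exact permutation p = 0.277, adjusted 0.33) and rho = 0.50 (exact permutation p = 0.267, adjusted 0.333), and r = -0.33 without KO 1 and KO 2. Cd79a and Ighm had r = -0.25 (exact permutation p = 0.578, adjusted 0.602) and rho = -0.36 (exact permutation p = 0.444, adjusted 0.483), with r = 0.04 without WT 3 and KO 1. S100a8 and S100a9 had r = 0.46 (exact permutation p = 0.302, adjusted 0.343) and rho = 0.46 (exact permutation p = 0.302, adjusted 0.344), with r = 0.13 without WT 3 and KO 1. Ager and Cav1 had r = -0.04 (exact permutation p = 0.948, adjusted 0.948) and rho = 0.21 (exact permutation p = 0.662, adjusted 0.662), with r = 0.70 without WT 3 and KO 2. Col1a1 had r = 0.74 with Col1a2 (exact permutation adjusted p = 0.101) and 0.80 with Col3a1 (0.0833). Without KO 1 and KO 2 these r were 0.40 and 0.51. The r was 0.84 for Kdr and Cdh5 (adjusted 0.0794), 0.91 for Cd3e and Lck (0.0562) and 0.63 for Klrb1c and Nkg7 (0.152). For Cd3e and Lck it was 0.05 without WT 3 and KO 1.

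Per kilobase of exon, mean levels over the 7 libraries ranged widely. Hba-a2 stood at 223 CPM per kilobase, Hba-a1 at 172 and Hbb-bs at 72.7, beside 179 for the macrophage marker Siglecf and 34300 for Lyz2. Sftpc was at 35.7, Napsa at 30.6, Scgb1a1 at 27.3, Cav1 at 25.8 and S100a8 at 19.5. The lowest were Kdr at 0.0412 and Col1a2 at 0.0469, with 3 to 33 counts a library, so counting error weighs most there.

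Summed by cell type, the means were higher in KO for red cell genes (WT 188 CPM ± 168, SD, n = 4; KO 552 ± 281, SD, n = 3), club cell genes (7.21 ± 5.40 and 22.1 ± 17.3) and stromal genes (5.47 ± 2.21 and 27.7 ± 20.2, of which Fstl1 made most in KO). Endothelial genes summed to 12.9 ± 1.98 and 23.7 ± 7.03 CPM. Means were also higher in KO, with overlapping libraries, for NK cell (0.9 and 3.29 CPM), T cell (1.69 and 3.35), B cell (5.23 and 8.56), granulocyte (10.2 and 19.7) and platelet genes (3.01 and 6.11). For mast cell genes they were 0.34 and 0.375. The libraries of the genotypes overlapped for red cell and club cell genes, where KO 3 lay within the WT range, and not for endothelial and stromal genes. For the stromal genes this rests on Fstl1, which made 9.38 of the 12.9 CPM of KO 3. No test was made on these sums.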

How the data were processed

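RNA of sorted alveolar macrophages was extracted from TRIzol LS and sequenced from Nextera XT libraries, per the labels' protocols; this kit does not mark strand. The authors deposited raw counts of reads for each gene symbol, made with rsubread by the table's title, and the submitters' processing notes name mm10 and DESeq2. No source used here gives their annotation, strand setting or rule for multi-mapping reads. Rows without a symbol (0.376% to 0.424% of counts) were left out.

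Counts were fitted in R 4.3.3 with edgeR 4.0.16 on genotype alone: filterByExpr (12759 genes), TMM factors, quasi-likelihood test, Benjamini-Hochberg adjustment over all genes, threshold 0.05. Log2 CPM used a prior count of 2. The test was checked on simulated data. Lengths and positions came from GENCODE M21 (mm10), with exon lengths summed over all transcripts. Alternatives were DESeq2 1.42.0, other scalings and filters, voom with quality weights of limma 3.58.1, a replicate block, and libraries left out. Molecular identifiers are not mentioned, so limits from counts cover counting error only.

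The set and the lists were chosen with earlier results of these data known. All 35 genes are named, with the most abundant gene of each wider list and any gene called there by edgeR; from the macrophage list, the 3 most abundant and Siglecf. Pairs needed a mean of 10 counts in both genes, which all 25 pairs compared met. A listed pair of Hbb-bs with Hbb-bt was not compared, as Hbb-bt has no row among the counts.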

Additional observations from a re-analysis of the deposited data

Results flagged for a closer look

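Among the WT libraries, 45 sets of 4 values were looked at (35 genes and the summed CPM of 10 cell types with more than 1 gene), and chance alone flags about 1 in 20. In 2 of them a single library stood far from the others by Dixon's ratio of its gap to the range above the 95% critical value for 4 samples. For Kdr, WT 2 had 0.469 CPM and the other WT libraries 0.0954 to 0.156 (ratio 0.838). For the summed endothelial genes, WT 2 had 15.8 CPM and the others 11.7 to 12.3 (ratio 0.854).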

How the results depend on the processing

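The count of genes of the set called (0 of 35 by edgeR) and of all genes called (11) rested on the method and on single libraries. They were 5 and 753 with DESeq2, 3 and 397 with no filter, 1 and 21 with at least 5 CPM in at least 3 libraries, 0 and 46 with voom of limma, and 11 and 590 without WT 4 and KO 3. Leaving out 1 library gave 0 to 3 genes of the set and 7 to 284 of all genes: 284 without WT 4 (of the set, Fstl1), 217 without KO 3 (Fstl1, Klrb1c and Napsa), and 10 without KO 1 (Fstl1). With a replicate block 8 of the set and 430 of all genes were called. No KO library shares the number of WT 4, so WT 4 does not inform the genotype difference in that fit. The block is thus not separate from leaving out WT 4. Whether the numbers pair the libraries was not settled. The deviations of same-numbered libraries from their genotype means correlated at -0.01, 0.14 and -0.02, and not every library correlated best with its own number. Deviations within a genotype depend on one another and WT 4 has no partner, so these correlations cannot decide the pairing. The cause of the differences in calls was not tested.

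The mean CPM was higher in KO for 32 of 35 genes, and for 14 with KO 3 alone against WT, chosen after seeing the data. The number highest in KO 1 or KO 2 was 31, or 32 without WT 4 and KO 3. The log2 ratio of summed B cell genes was 0.71, and -0.67 to 1.12 with 1 library left out (-0.67 without KO 2). Signs turned for Cav1, Nkg7, Cpa3, S100a9 and Ighm, none of them past the threshold. With a library left out the log2 fold change ranged from -0.22 to 0.12 for Cav1 (0.12 without WT 3), -0.98 to 1.20 for Ighm (-0.98 without KO 2), -0.43 to 0.76 for Nkg7 (-0.43 without KO 1), -0.26 to 0.40 for Cpa3 (-0.26 without KO 1, -0.03 without WT 1) and -0.59 to 0.51 for S100a9 (0.51 without WT 1, 0.29 without WT 4, 0.25 without KO 2). Ighm was -0.15 with voom and -0.11 with the replicate block, and S100a9 1.33, 0.95 and, without WT 4 and KO 3, 0.31. Of 535 refits of single genes, 489 kept direction and side of the threshold, 33 came to pass it and 13 turned sign. Klrb1c did not pass the filter without WT 2, so it has no value there. Depth limits the genes with few counts most, such as Cdh5 with 1 to 28 a library.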
